A study of Mus musculus with 51 samples.

Results

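Whole pieces of transplanted mammary tumor, made in mice that carry a conditional Etv6-NTRK3 knock-in allele and Wap-Cre, were compared with whole mammary glands of wild-type mice on Affymetrix mouse whole-genome arrays. The 4 transplant arrays and the 5 gland arrays were taken by their titles alone, as 9 of the 51 arrays of the series, and no measured value entered that choice. The transplants are tumors grown in RAG2-/- recipients: recipients 1 and 2 carried tumor from mouse CR90, and recipients 3 and 4 carried tumor from mouse CR115. These mice also carry a floxed Rosa26 lacZ reporter, but neither the transplants nor the glands were sorted on it, so each array mixes tumor or gland epithelium with the other cells of the tissue. Unsorted primary tumors of the same model (23 arrays, 14 mice), grown in the mouse of origin, served as a further comparison. The 5 glands come from 5 wild-type mice, with no Cre, fusion allele or reporter named for them, and neither their age nor their state (virgin, pregnant, lactating or involuting) is given, nor is the age of any other animal or the passage of these transplants. The 4 transplants therefore stand for 2 tumor sources, and host genotype, transplantation and tumor cannot be told apart against the glands.

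Etv6-NTRK3 joins the dimerizing part of the transcription factor Etv6 to the kinase part of the neurotrophin receptor NTRK3, and the resulting active kinase signals through the RAS-MAPK and PI3K pathways. It is the hallmark fusion of human secretory carcinoma of the breast. The Wap promoter, which drives Cre here, belongs to a whey milk protein gene and is active in alveolar luminal cells, the milk-making cells of the gland. A normal gland is a bilayer of luminal and myoepithelial cells in a stroma of fat, fibroblasts, vessels and immune cells. RAG2-deficient hosts lack mature B and T cells and keep myeloid and natural killer cells.

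The values are probe set intensities, set to at least 32 and given as log2, so that a log2 level of 5 is the floor. The array medians lay between 44.2 and 49.7 intensity units in the transplants, against 50.3 to 57.8 in the glands (two-sided exact permutation test, p = 0.0159, the smallest this design allows, adjusted p = 0.0794 over 5 control measures). BioB and BioC spike-ins lay at a log2 level of 8.21 ± 0.21 in the transplants, against 8.84 ± 0.34 in the glands (SD, n = 4 and 5, exact permutation test, adjusted p = 0.0794). The log2 ratio of 3' over 5' Actb signal was 0.28 ± 0.08 in the transplants, against 0.95 ± 0.75 in the glands (SD, exact permutation test, adjusted p = 0.106), with gland 4 highest at 2.18. The part of these measures in the results below was not tested. Across genes, the transplants of one mouse of origin correlated at r = 0.990 for CR90 and 0.988 for CR115, transplants of different origin at 0.926 to 0.939, and a transplant with a gland at 0.718 to 0.838. The primary tumor of CR115 was not closer to its own transplants than to those of CR90: it correlated at 0.943 and 0.938 with the CR90 recipients and at 0.943 and 0.939 with the CR115 recipients. Its 2 arrays had medians of 42.9 and 46.2, against 49.0 to 53.7 on the other primary tumor arrays. The medians were 44.9 and 44.2 in the CR90 recipients and 49.7 and 48.3 in the CR115 recipients. The part of these medians in the correlations was not tested. Values are listed below with the recipients 1 and 2 (CR90) first, then 3 and 4 (CR115), and glands 1 to 5. Without CR90 or without CR115 means that the 2 recipients of its tumor were left out; the CR115 primary tumor stayed among the primary tumors. A value after ± is the SE of the fitted difference (transplant minus gland, 4 and 5 arrays) unless it is named as an SD. The spread behind this SE is pooled over all 6 groups of the series.

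Of 15150 genes tested, 3551 rose in the transplants (23.4%) and 2547 fell (16.8%) at a Benjamini-Hochberg adjusted p under 0.05 in limma, so that 6098 genes (40.3%) were called. Scaling every array to a common median made this 4777 higher and 2016 lower (70.3% of calls higher, against 58.2%) and moved the median of all genes by 0.14 log2 units. A called change reached 2-fold for 1806 higher and 1423 lower genes, and the median log2 difference over all genes was 0.07. Counting without a test, all 4 transplants lay above all 5 glands for 3476 genes (22.9%) and below them for 2666 (17.6%). Both pairs of transplants lay on the called side of the gland mean for 3492 of the 3551 higher genes and 2543 of the 2547 lower ones. These shares are the background for every gene list below, whose counts are of called genes and whose medians are over members tested.

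The 12 largest rises by the naming rule were of Pglyrp1, Csn1s2a, Sema3b, Stra6, Gpx2, Atp6v1c2, S100a8, Krt79, Arg1, Mtm1, Cited4 and Ube2c. Pglyrp1, a bactericidal peptidoglycan-binding protein of neutrophil granules and epithelia, had log2 levels of 11.14, 11.18, 10.88 and 10.16 in the transplants, against 5.00, 5.00, 5.00, 5.00 and 5.00 in the glands. All 5 glands were at the floor and every transplant lay far above it (at least 57.3-fold higher, adjusted p = 1.4e-05). Csn1s2a, a casein, had log2 levels of 12.02, 12.12, 13.18 and 13.13 in the transplants, against 10.78, 5.29, 5.28, 10.55 and 5.00 in the glands (log2 difference 5.23 ± 0.77, SE, adjusted p = 7.4e-07). The transplants were all above the glands, and glands 1 and 4 stood well above the other glands. Sema3b, a secreted semaphorin, had log2 levels of 10.90, 11.07, 10.53 and 10.80 in the transplants, against 5.47, 5.00, 5.86, 5.91 and 5.36 in the glands (log2 difference 5.12 ± 0.81, SE, adjusted p = 2.8e-06). Stra6, the cellular receptor for retinol-binding protein, had log2 levels of 10.58, 10.20, 11.24 and 10.88 in the transplants, against 5.85, 5.00, 5.35, 5.00 and 5.00 in the glands (log2 difference 5.12 ± 0.94, SE, adjusted p = 2.8e-05). No transplant came within 4 log2 units of a gland for either gene. Gpx2, an epithelial glutathione peroxidase, differed by 4.89 ± 0.80 log2 units. Atp6v1c2, a subunit of the proton pump that acidifies vesicles, differed by 4.82 ± 0.84 log2 units, with gland 1 at 7.26 and the other glands at no more than 5.59. The calcium-binding S100a8 differed by 4.56 ± 1.0 log2 units, the keratin Krt79, known from sebaceous ducts, by 4.50 ± 1.0, and arginase 1 (Arg1) by 4.46 ± 0.76. The lipid phosphatase gene Mtm1 and the transcriptional coactivator gene Cited4 had log2 differences of 4.42 ± 0.57 and 4.38 ± 0.64, and their groups did not overlap either.

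**Figure D1:**
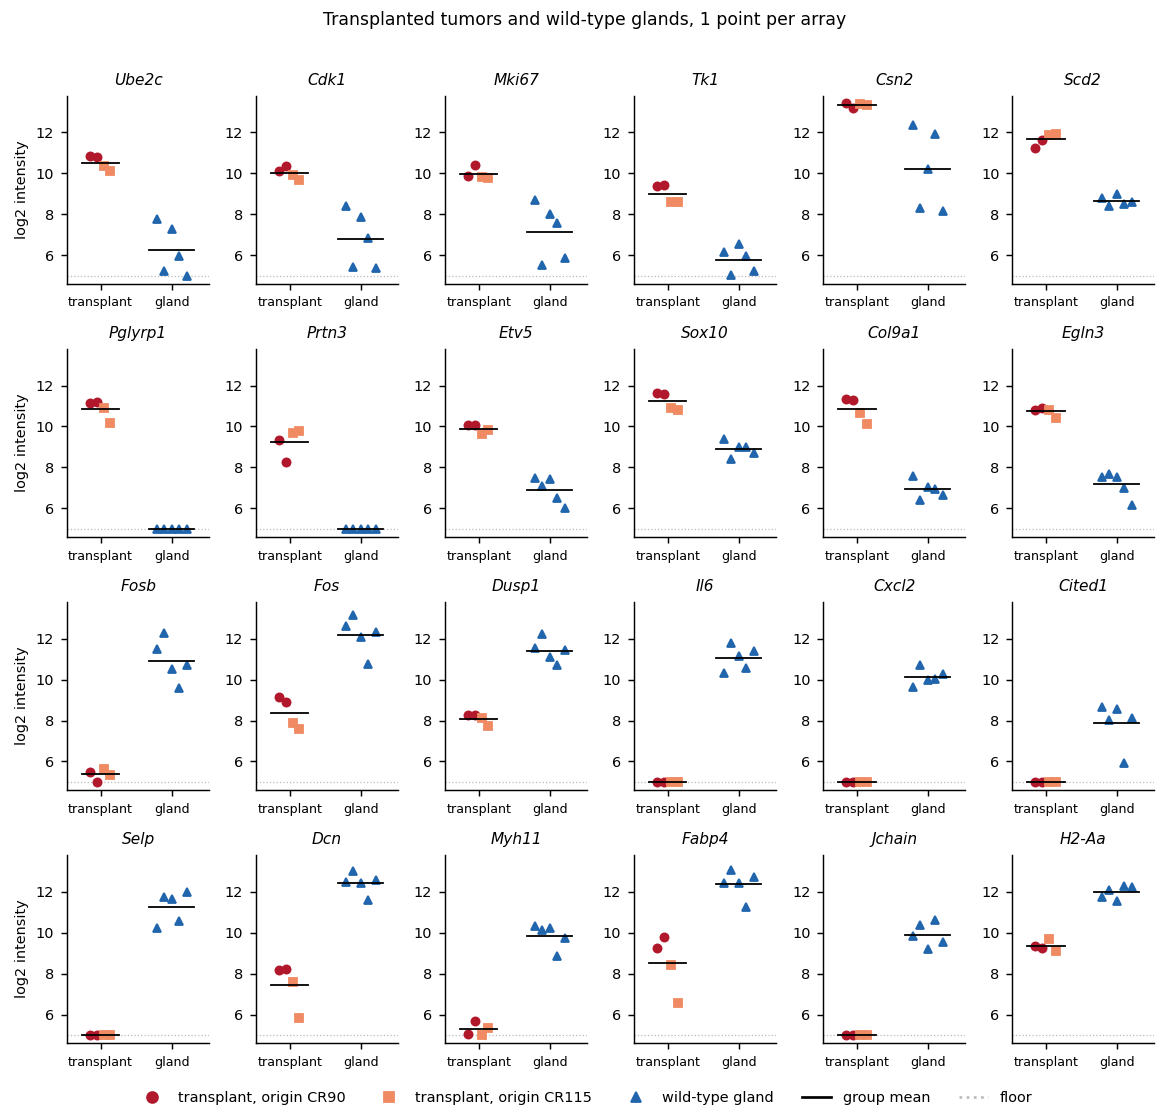
Log2 level (vertical axis, floor at 5) of 24 genes on each array, with transplants at the left of each pair (marked by mouse of origin) and wild-type glands at the right; each point is 1 array. Fosb, Il6 and Selp lie at or near the floor in all 4 transplants and above 9 in all 5 glands, while Ube2c and Pglyrp1 lie above 10 in all 4 transplants.

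The 12 largest falls were of Selp, Retnla, Il6, Fosb, Tnfaip6, Igkv8-30, Cd36, Dpt, Cxcl2, Jchain, Dcn and Nr4a3. Selp, the adhesion molecule P-selectin of endothelium and platelets, had log2 levels of 5.00, 5.00, 5.00 and 5.00 in the transplants, against 10.24, 11.78, 11.68, 10.60 and 11.99 in the glands (at least 76.4-fold lower, adjusted p = 3.9e-11). Every transplant was at the floor and no gland was below 10. Il6, an inflammatory cytokine, had log2 levels of 5.00, 5.00, 5.00 and 5.00 in the transplants, against 10.30, 11.78, 11.15, 10.56 and 11.40 in the glands (at least 65.7-fold lower, adjusted p = 1.1e-09). Retnla, a secreted resistin-like protein of type 2 immunity, had log2 levels of 5.00, 5.00, 8.34 and 5.00 in the transplants, against 11.86, 12.87, 11.57, 10.75 and 11.56 in the glands (log2 difference -6.22 ± 1.35, SE, adjusted p = 2.5e-04). Of the transplants recipient 3 alone was above the floor for Retnla. Cd36, a fatty acid transporter of fat, endothelium and macrophages, was likewise above the floor in recipient 3 alone, at 7.20, against 9.69 to 11.87 in the glands (log2 difference -5.08 ± 1.08, SE, adjusted p = 1.9e-04). Tnfaip6, a hyaluronan-binding protein induced in inflammation, differed by -5.38 ± 0.74 log2 units. Jchain, the joining chain of secreted antibodies, was at least 30.2-fold lower, adjusted p = 2.8e-05, and the antibody light-chain segment Igkv8-30 differed by -5.23 ± 0.97 log2 units. The extracellular matrix genes Dpt and Dcn of fibroblasts differed by -5.06 ± 0.84 log2 units and -4.98 ± 1.23. In tissue pieces, fewer cells of a type and less RNA per cell cannot be told apart.

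Genes of cell division moved together. All 24 members tested of the mitosis list rose, with a median log2 difference of 2.10, against 23.4% of all genes called higher, and for 23 of them all transplants lay above all glands (22.9% of all genes). Ube2c, which loads ubiquitin for the anaphase-promoting complex, had log2 levels of 10.84, 10.78, 10.34 and 10.13 in the transplants, against 7.78, 5.22, 7.27, 5.96 and 5.00 in the glands (log2 difference 4.21 ± 0.46, SE, adjusted p = 1.2e-09). Birc5 (survivin), of the chromosomal passenger complex, had log2 levels of 9.40, 9.60, 9.69 and 9.43 in the transplants, against 8.0, 5.00, 7.37, 5.94 and 5.00 in the glands (log2 difference 3.27 ± 0.40, SE, adjusted p = 2.2e-08). The glands spread widely: glands 1 and 3 were highest and glands 2 and 5 at or near the floor for both genes. Cdk1, the mitotic kinase, had log2 levels of 10.10, 10.34, 9.92 and 9.65 in the transplants, against 8.39, 5.40, 7.85, 6.84 and 5.38 in the glands (log2 difference 3.18 ± 0.46, SE, adjusted p = 4.3e-07). The spindle kinase gene Aurka differed by 3.02 ± 0.32 log2 units and lay at 6.12 or less in every gland. Mki67, the proliferation antigen Ki-67, had log2 levels of 9.86, 10.39, 9.82 and 9.76 in the transplants, against 8.69, 5.50, 7.99, 7.55 and 5.86 in the glands (log2 difference 2.74 ± 0.43, SE, adjusted p = 1.9e-06). Without the CR90 recipients 17 of the 24 were called higher. Other probe sets of Top2a, Cenpa and Tpx2 ran the opposite way without overlap.

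Of 21 members tested of the DNA replication list 16 rose and none fell (median log2 difference 1.45), among them Mcm2 to Mcm7, which form the replicative helicase; other probe sets of Mcm3 and Cdc45 ran the opposite way. Tk1, the thymidine kinase of the salvage pathway, had log2 levels of 9.39, 9.42, 8.62 and 8.60 in the transplants, against 6.14, 5.00, 6.52, 5.94 and 5.23 in the glands (log2 difference 3.13 ± 0.42, SE, adjusted p = 1.2e-07). Rrm2, the small subunit of ribonucleotide reductase, differed by 2.53 ± 0.48 log2 units and Mcm7 by 1.74 ± 0.29. Without the CR90 recipients 9 of the 21 were called higher. The ribosome biogenesis list had 10 of 16 members higher and none lower (median 0.92). Its members Wdr12, Ncl (nucleolin) and Polr1b, an RNA polymerase I subunit, differed by 2.11 ± 0.30, 1.69 ± 0.31 and 1.54 ± 0.20, each with no overlap of the groups; another probe set of the member Bop1, a rise of 1.38 log2 units, ran the opposite way at -2.66 without overlap. Among cell cycle inhibitors and p53 targets 3 of 14 rose and 1 fell, with a median of 0.00. The p53 targets Zmat3 and Phlda3 and cyclin G1 (Ccng1) differed by 1.98 ± 0.45 log2 units, 1.69 ± 0.45 and 1.12 ± 0.33, whereas Gas1, a growth-arrest gene, had a log2 difference of -1.79 ± 0.47. Phlda3 lost its call without the CR115 recipients (adjusted p = 0.094) and Ccng1 without the CR90 recipients (adjusted p = 0.060).

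Promoters of mitotic genes are known for the CHR element (TTTGAA) and the CCAAT box, through which their late cell cycle transcription is controlled. Motifs were searched on both strands in windows of 250 bases before to 50 after the start of each gene, and the CArG box below was written as CC, 6 bases of A or T, and GG. Of the 19 mitosis members with a window, 14 held a CHR element (73.7%, against 15.1% of 12077 windows of all genes), 16 a CCAAT box (84.2%, against 42.1%) and 14 both (73.7%, against 5.90%). Sequences for 3 members that rose and for Zfp36, whose level fell and whose window holds a CArG box, the element of serum response factor, are shown with the 120 bases before the start. They are from RefSeq, build GRCm38.p6: Ube2c at chr2:164769809-164769928 (plus strand), Cdk1 at chr10:69352913-69353032 (minus strand), Cdc20 at chr4:118437344-118437463 (minus strand) and Zfp36 at chr7:28379229-28379348 (minus strand). Capitals mark the CHR element or the CCAAT box, in either orientation, in the first 3 and the CArG box in Zfp36.
Ube2c: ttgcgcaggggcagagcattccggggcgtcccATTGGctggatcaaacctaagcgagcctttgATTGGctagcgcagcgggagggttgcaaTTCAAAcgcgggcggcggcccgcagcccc
Cdk1: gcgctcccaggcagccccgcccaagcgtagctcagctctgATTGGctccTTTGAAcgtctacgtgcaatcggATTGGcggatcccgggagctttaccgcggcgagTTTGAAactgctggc
Cdc20: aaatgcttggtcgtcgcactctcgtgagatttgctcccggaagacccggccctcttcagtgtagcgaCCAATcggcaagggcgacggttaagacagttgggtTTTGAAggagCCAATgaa
Zfp36: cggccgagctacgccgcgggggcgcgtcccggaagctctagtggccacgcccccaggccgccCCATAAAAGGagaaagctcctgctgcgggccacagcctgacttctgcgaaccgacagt
A match of letters is a description of these windows. In the immediate early list 2 of 16 windows held a CArG box (12.5%, against 1.60% of all windows), those of Egr2 and Zfp36, and 2 held the cAMP response element TGACGTCA (12.5%, against 3.11%), those of Dusp1 and Btg2. None of the 7 windows of the AP-1 list held either. The E-box CACGTG was in 2 of 12 ribosome biogenesis windows (16.7%) and 5 of 13 circadian windows (38.5%), against 10.8% of all windows.

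Immediate early genes, which are switched on within minutes by growth factor and stress signals, were lower. Of the 8 AP-1 subunit genes 7 fell (median log2 difference -2.80), against 16.8% of all genes called lower, and for all 7 the transplants lay below all glands (17.6% of all genes); Jund, with a log2 difference of -0.48, was the other. Fosb had log2 levels of 5.49, 5.01, 5.65 and 5.33 in the transplants, against 11.49, 12.28, 10.52, 9.62 and 10.74 in the glands (log2 difference -5.44 ± 0.39, SE, adjusted p = 4.0e-15), and no transplant was within 3 log2 units of a gland. Fos itself had log2 levels of 9.14, 8.93, 7.87 and 7.56 in the transplants, against 12.63, 13.17, 12.09, 10.75 and 12.32 in the glands (log2 difference -3.80 ± 0.56, SE, adjusted p = 8.2e-07). The recipients of CR90 were higher than those of CR115, yet all were below the lowest gland, gland 4. Fosl1 differed by -4.09 ± 0.49 log2 units and Atf3, a stress-induced partner of the AP-1 family, by -3.29 ± 0.54. Of 22 other immediate early genes 16 fell and none rose (median -2.52). Nr4a3, a nuclear receptor, was at the floor in all transplants, against 9.57 to 10.39 in the glands (at least 30.9-fold lower, adjusted p = 2.3e-12). Dusp1, a phosphatase that inactivates MAP kinases, had log2 levels of 8.27, 8.26, 8.11 and 7.72 in the transplants, against 11.57, 12.24, 11.10, 10.73 and 11.43 in the glands (log2 difference -3.32 ± 0.55, SE, adjusted p = 5.2e-06). The endothelial and lymphoid transcription factor Klf2 was at least 9.22-fold lower, adjusted p = 3.2e-07, and Zfp36, which promotes decay of AU-rich messages, differed by -3.14 ± 0.43 log2 units. Ier2, Ier3, Nr4a2, Ccn2, Myc and Rhob were not called. For Nr4a2, at a log2 difference of 0.41, other probe sets fell without overlap (-1.39, -2.79, -2.94 and -3.42), and a further one differed by 0.85. For Ier5, at -1.41, another probe set rose by 1.37 without overlap, and a further one differed by -2.05.

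**Figure D2:**
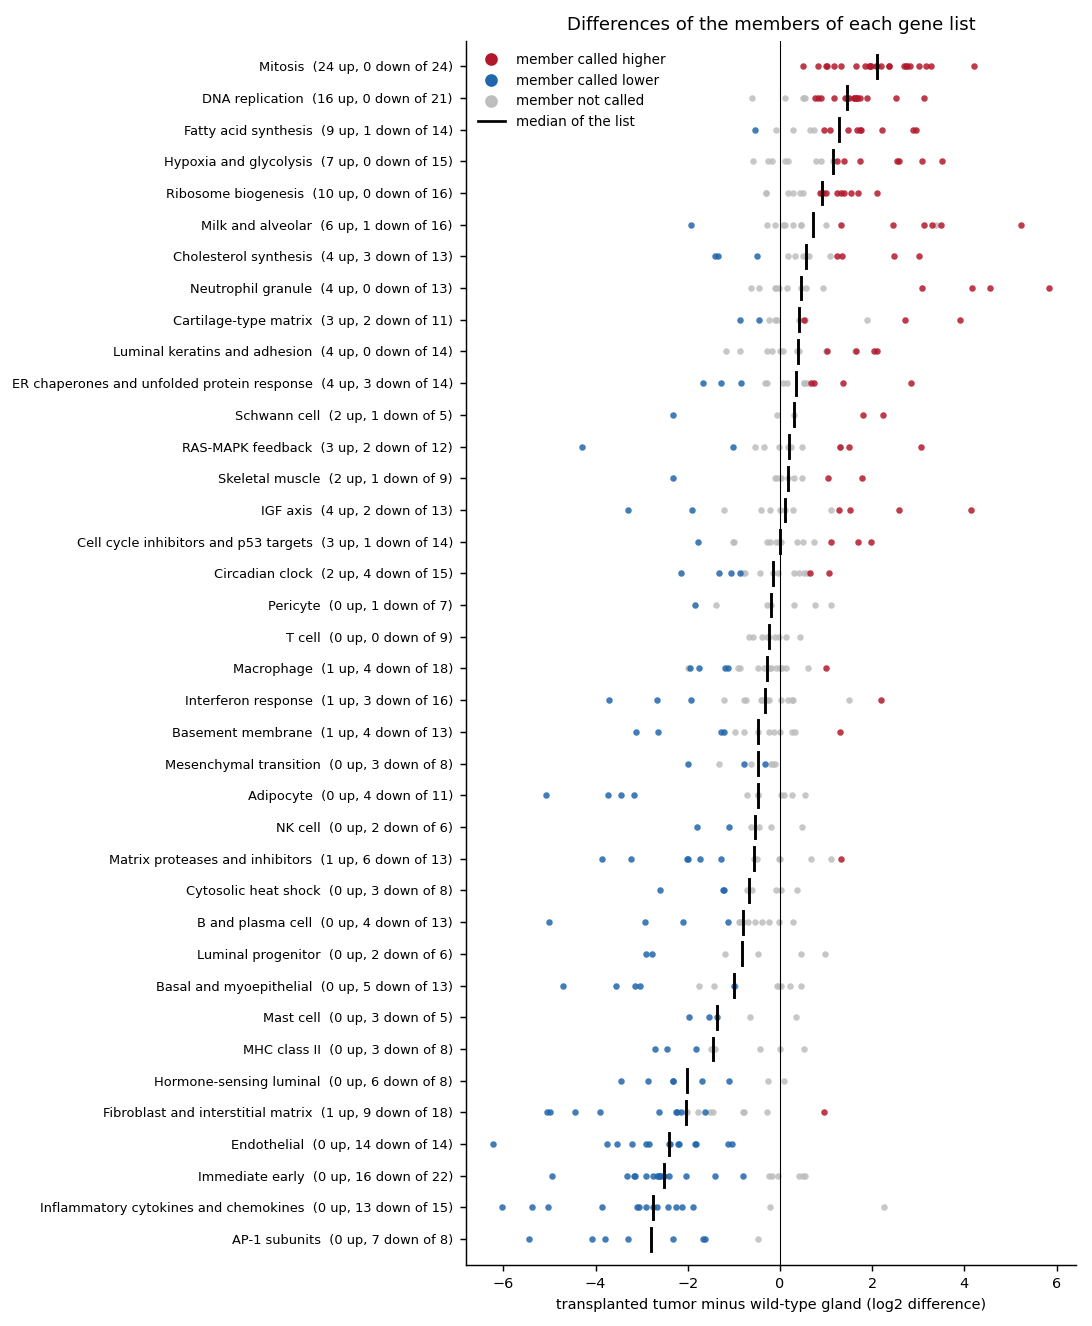
Log2 difference, transplant minus gland (horizontal axis), of every tested member of the 38 gene lists with at least 5 tested members; each point is 1 gene, red where called higher, blue where called lower and grey where not called, and the black bar is the list median. The mitosis points all lie right of 0 and the endothelial points all lie left of it.

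Inflammatory messengers were lower as well. Of 15 cytokine and chemokine genes 13 fell and none rose (median log2 difference -2.76); Il1a and Il33 were not called. Cxcl2, a neutrophil-attracting chemokine, was at the floor in every transplant, against 9.62 to 10.73 in the glands (at least 34.9-fold lower, adjusted p = 6.4e-08). Ccl2, which attracts monocytes, had log2 levels of 5.67, 5.70, 5.47 and 5.51 in the transplants, against 8.96, 10.54, 10.30, 8.17 and 9.17 in the glands (log2 difference -3.87 ± 0.64, SE, adjusted p = 5.2e-06). Among the cytosolic heat shock genes 3 of 8 fell (median -0.67). The inducible chaperone gene Hspa1a had log2 levels of 7.87, 7.85, 6.77 and 6.69 in the transplants, against 9.77, 9.62, 9.78, 9.83 and 9.90 in the glands (log2 difference -2.60 ± 0.40, SE, adjusted p = 1.6e-06), with the glands nearly equal and all above the transplants. Its cofactors Bag3 and Dnajb1 differed by -1.24 ± 0.28 log2 units and -1.21 ± 0.40. Dnajb1 lost its call without the CR115 recipients (adjusted p = 0.12), and with the mean of all probe sets of a gene it was at -0.40 (adjusted p = 0.38), its other probe set differing by 0.47.

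In the RAS-MAPK feedback list, 3 of 12 members rose and 2 fell, with a median log2 difference of 0.20. The ETS transcription factor Etv5, a target of the pathway, had log2 levels of 10.06, 10.08, 9.63 and 9.83 in the transplants, against 7.46, 7.09, 7.41, 6.49 and 6.02 in the glands (log2 difference 3.05 ± 0.51, SE, adjusted p = 6.2e-06). Its relative Etv4 had log2 levels of 8.07, 7.53, 8.25 and 8.03 in the transplants, against 6.89, 6.90, 6.95, 6.86 and 6.68 in the glands (log2 difference 1.31 ± 0.25, SE, adjusted p = 5.6e-05), and Spry1, an inhibitor of the pathway, differed by 1.49 ± 0.46 log2 units. All transplants were above all glands for these 3 genes, though Spry1 lost its call without the CR115 recipients (adjusted p = 0.054). Dusp5, a phosphatase of nuclear ERK, had log2 levels of 6.17, 5.99, 5.32 and 5.21 in the transplants, against 10.27, 10.84, 9.24, 9.01 and 9.81 in the glands (log2 difference -4.31 ± 0.54, SE, adjusted p = 3.2e-08). The common feedback genes Dusp6 and Spry4 were not called, at log2 differences of -0.01 and 0.47. Of the fusion partners, Etv6 was not called, at a log2 difference of 0.15 ± 0.35. Ntrk3 lay at 5.69, 5.38, 6.34 and 6.32 in the transplants, against 5.00, 5.00, 5.00, 5.00 and 5.00 in the glands (log2 difference 1.04 ± 0.33, SE, adjusted p = 0.010), close to the floor throughout; it lost its call without the CR115 recipients (adjusted p = 0.36), with a floor at 64 (0.27) and averaged per mouse of origin (0.061), and 2 other probe sets of the gene ran the opposite way. Whether a probe set reads the fusion transcript, whose NTRK3 part is named by the human symbol, was not tested.

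Insulin-like growth factors act through the receptor Igf1r and are held by binding proteins, and Igf2r clears Igf2. Of 13 genes of this axis 4 rose and 2 fell (median log2 difference 0.11). Igfbp2 had log2 levels of 11.17, 10.58, 8.89 and 8.91 in the transplants, against 5.85, 5.98, 6.46, 5.95 and 5.56 in the glands (log2 difference 4.15 ± 0.91, SE, adjusted p = 3.1e-04), higher in the CR90 than in the CR115 recipients and in all of them above the glands. Igf2 had log2 levels of 10.78, 10.35, 11.02 and 11.20 in the transplants, against 7.74, 8.21, 8.05, 8.24 and 8.36 in the glands (log2 difference 2.59 ± 0.79, SE, adjusted p = 0.0073). Igf1 differed by -1.91 ± 0.74 log2 units and Igfbp6, which binds mostly IGF-II, by -3.29 ± 0.45. Igf2 lost its call without the CR115 recipients (adjusted p = 0.072) and with the mean of all probe sets (0.17). Igf1 lost its call without either mouse of origin (0.051 without CR90 and 0.28 without CR115), without recipient 3 or 4 (0.075 and 0.067), without gland 2 (0.093), and under 5 other settings apart from limma's test against a 2-fold change (0.053 to 0.33). The 4 rises became 2 without either mouse.

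Casein transcripts were high in the transplants. Of 16 milk and alveolar genes 6 rose and 1 fell (median log2 difference 0.73). Csn2, beta-casein, had log2 levels of 13.43, 13.21, 13.40 and 13.35 in the transplants, against 12.36, 8.29, 10.22, 11.92 and 8.15 in the glands (log2 difference 3.12 ± 0.51, SE, adjusted p = 4.1e-06). The transplants were nearly equal, while the glands ranged over more than 4 log2 units, with glands 1 and 4 highest. Csn1s1 likewise had glands 1 and 4 highest among the glands, at 13.39, 12.87, 13.24 and 13.12 in the transplants, against 11.81, 8.28, 8.48, 11.25 and 8.30 in the glands (log2 difference 3.49 ± 0.58, SE, adjusted p = 6.2e-06). Lalba, the lactose synthase subunit alpha-lactalbumin, had log2 levels of 11.44, 11.27, 9.0 and 9.50 in the transplants, against 6.94, 7.50, 6.14, 6.27 and 7.32 in the glands (log2 difference 3.29 ± 0.92, SE, adjusted p = 0.0036), and lost its call without the CR90 recipients (adjusted p = 0.12). Wap, the whey acidic protein whose promoter drives Cre, lay at 6.08, 5.94, 7.0 and 7.01 in the transplants, against 6.23, 6.36, 6.26, 6.21 and 6.14 in the glands, with overlapping groups and a log2 difference of 0.46 ± 0.87; it turned to -0.23 without the CR115 recipients. The phosphate carrier gene Slc34a2 was the member that fell.

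Fatty acid synthesis serves milk fat in the gland. Of 14 fatty acid synthesis genes 9 rose and 1 fell (median log2 difference 1.29), among the rises Acaca, Acly and Fasn of the main pathway. Scd2, a stearoyl-CoA desaturase, had log2 levels of 11.23, 11.63, 11.89 and 11.91 in the transplants, against 8.81, 8.41, 8.98, 8.51 and 8.59 in the glands (log2 difference 2.96 ± 0.51, SE, adjusted p = 1.0e-05). Its relative Scd1 differed by 2.21 ± 0.62 log2 units, and Thrsp, a lipogenic regulator of mammary and fat tissue, by 2.88 ± 0.96. Without the CR90 recipients the count of rises was 4, and Thrsp lost its call (adjusted p = 0.14), as it did with a floor at 64 or 100 (0.050 and 0.11); Scd1 lost it without CR115 (adjusted p = 0.088). Gpam, the first acyltransferase of triglyceride synthesis, fell. In the cholesterol list 4 of 13 rose and 3 fell (median 0.56): Dhcr7, the last enzyme of the pathway, differed by 3.02 ± 0.50 log2 units and Fdps, which makes farnesyl diphosphate, by 2.46 ± 0.49, whereas Lss, Insig1 and Mvd fell; another probe set of Mvd ran the opposite way. The 4 rises became 2 without CR90, and the 3 falls became 0 without CR90 and 1 without CR115 or without recipient 2.

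Secretory cells rely on the endoplasmic reticulum, whose list had 4 of 14 members higher and 3 lower (median log2 difference 0.34). The disulfide isomerase gene Pdia3 had log2 levels of 11.17, 10.84, 10.30 and 10.32 in the transplants, against 7.81, 8.07, 7.58, 7.78 and 7.47 in the glands (log2 difference 2.84 ± 0.50, SE, adjusted p = 1.6e-05), and Xbp1, a transcription factor of secretory differentiation, differed by 1.36 ± 0.31 log2 units. Of the falls, Dnajb9, an ER co-chaperone, differed by -1.68 ± 0.25 log2 units and Herpud1, of ER-associated degradation, by -1.27 ± 0.27. The central chaperone gene Hspa5 was not called, at -0.28. The 4 rises became 2 without CR115, without recipient 4 and without gland 4 or 5.

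Of 14 genes for luminal keratins and adhesion 4 rose and none fell (median log2 difference 0.39), a share near the 23.4% of all genes called higher. Epcam, which defines the epithelium, had log2 levels of 12.42, 12.57, 12.38 and 12.62 in the transplants, against 11.84, 11.93, 11.37, 10.80 and 11.29 in the glands (log2 difference 1.03 ± 0.37, SE, adjusted p = 0.022). The keratin genes Krt8 and Krt18 of luminal cells were not called, at log2 differences of 0.07 ± 0.36 and 0.41 ± 0.39; Krt8 turned to -0.13 without gland 4, and quantile normalization turned both. The tight junction genes Cldn3 and Cldn7 differed by 2.09 ± 0.39 log2 units and 2.04 ± 0.46, and Cdh1, E-cadherin, by 0.36 ± 0.34. Epcam lost its call without CR90 (adjusted p = 0.095), CR115 (0.099) or gland 4 (0.071), with quantile normalization (0.12) and averaged per mouse of origin (0.053), and the 4 rises became 2 in each of these settings but the first.

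Hormone-sensing luminal genes fell in 6 of 8 cases, and none rose (median log2 difference -2.01). Esr1, the estrogen receptor, was at the floor in all transplants, with log2 levels of 5.00, 5.00, 5.00 and 5.00 in the transplants, against 7.44, 8.33, 7.35, 6.38 and 7.07 in the glands (at least 4.98-fold lower, adjusted p = 2.8e-05). Pgr, the progesterone receptor, had log2 levels of 5.74, 5.65, 6.39 and 6.33 in the transplants, against 8.32, 9.20, 8.34, 7.94 and 8.88 in the glands (log2 difference -2.32 ± 0.41, SE, adjusted p = 1.3e-05). Foxa1, a pioneer factor for the estrogen receptor, was at 5.01 or less in the transplants, against 7.06 to 9.64 in the glands (log2 difference -3.44 ± 0.67, SE, adjusted p = 5.9e-05), and the coregulator Cited1 was at least 7.26-fold lower, adjusted p = 1.5e-10. Of 6 luminal progenitor genes Cd14 and Lif fell, at log2 differences of -2.78 ± 0.52 and -2.90 ± 0.58, and Kit, at 0.97, was not called.

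In the basal and myoepithelial list 5 of 13 genes fell and none rose (median log2 difference -1.0), and these were the contractile genes and the oxytocin receptor. Myh11, smooth muscle myosin, had log2 levels of 5.07, 5.67, 5.00 and 5.34 in the transplants, against 10.31, 10.16, 10.23, 8.87 and 9.74 in the glands (log2 difference -4.71 ± 0.62, SE, adjusted p = 8.4e-08). Mylk, the kinase of myosin light chain, differed by -3.56 ± 0.85 log2 units, Cnn1 (calponin) by -3.14 ± 0.59 and Oxtr by -3.03 ± 0.67. The basal keratins were not called: Krt5 had log2 levels of 9.28, 9.92, 10.13 and 10.38 in the transplants, against 10.37, 9.58, 10.18, 9.80 and 9.70 in the glands and a log2 difference of 0.01 ± 1.22, and Krt14 had log2 levels of 8.87, 9.96, 10.05 and 10.18 in the transplants, against 11.21, 11.13, 11.25, 10.65 and 11.54 in the glands (log2 difference -1.43 ± 0.76, SE, adjusted p = 0.13). All 4 transplants were below all glands for Krt14, and Krt5 overlapped.

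All 14 endothelial genes tested fell (median log2 difference -2.40). Sox17, an endothelial transcription factor, was at or within 0.01 of the floor in all transplants, against 8.36 to 9.52 in the glands (log2 difference -3.76 ± 0.38, SE, adjusted p = 1.8e-10). Tek, the angiopoietin receptor, was at least 9.35-fold lower, adjusted p = 8.2e-11, and Vwf, von Willebrand factor, differed by -3.53 ± 0.51 log2 units. Pecam1, which defines endothelium, had log2 levels of 5.00, 5.00, 5.00 and 5.00 in the transplants, against 5.68, 7.24, 6.47, 5.07 and 6.23 in the glands (at least 2.2-fold lower, adjusted p = 3.0e-05), with gland 4 near the floor; it lost its call with a floor at 100 (adjusted p = 0.11) and in a fit of the 2 groups alone (0.074). Of 7 pericyte genes 1 fell, Pdgfrb, at -1.85 ± 0.59 log2 units, which lost its call without CR115 (adjusted p = 0.080).

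Of 18 fibroblast and interstitial matrix genes 9 fell and 1, Fbln1, rose (median log2 difference -2.03). Lum, the proteoglycan lumican, had log2 levels of 5.77, 6.19, 6.53 and 5.89 in the transplants, against 10.99, 11.07, 10.83, 10.10 and 10.003 in the glands (log2 difference -4.46 ± 0.83, SE, adjusted p = 3.3e-05). Dcn, decorin, had log2 levels of 8.17, 8.24, 7.60 and 5.83 in the transplants, against 12.48, 13.03, 12.42, 11.60 and 12.57 in the glands (log2 difference -4.98 ± 1.23, SE, adjusted p = 0.0011), with recipient 4 lowest. Pdgfra, a fibroblast receptor kinase, differed by -3.90 ± 0.53 log2 units. The fibrillar collagen genes Col1a1, Col1a2 and Col3a1 were not called, at -0.79, -1.53 and -2.03, and a fit of the 2 groups alone called 15 of the 18 lower. In the basement membrane list 4 of 13 fell and 1 rose. Lama2, a laminin chain of muscle and stroma, differed by -3.13 ± 0.35 log2 units, Nid1 by -2.65 ± 0.80 and Lama5, an epithelial laminin chain, by 1.30 ± 0.32. The 4 falls became 2 without CR115, when Nid1 lost its call (adjusted p = 0.076).

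Matrix proteases and their inhibitors fell in 6 of 13 cases and 1, Mmp14, rose. Mmp3, stromelysin, had log2 levels of 5.39, 5.16, 6.26 and 5.09 in the transplants, against 9.56, 9.47, 8.87, 9.63 and 9.46 in the glands (log2 difference -3.85 ± 0.75, SE, adjusted p = 5.7e-05). Adamts1 differed by -3.23 ± 0.53 log2 units, Mmp2 by -2.0 ± 0.54 and Plat, tissue plasminogen activator, by -2.01 ± 0.70. The 6 falls became 3 without CR115, when Mmp2 (adjusted p = 0.076) and Plat (0.15) lost their calls; Plat also lost it without CR90 (0.054). Of 8 genes of the mesenchymal transition list, 3 fell and none rose; Zeb1, a repressor of E-cadherin, differed by -2.0 ± 0.42 log2 units, and without recipient 3 the 3 became 1. Fat cell genes fell in 4 of 11 cases (median log2 difference -0.49). Lpl, lipoprotein lipase, had log2 levels of 6.85, 7.34, 7.28 and 6.87 in the transplants, against 10.71, 10.94, 10.44, 10.11 and 9.998 in the glands (log2 difference -3.46 ± 0.72, SE, adjusted p = 1.6e-04). Fabp4 differed by -3.73 ± 1.09 log2 units and Car3 by -3.17 ± 0.99; Fabp4 lost its call without CR115 (adjusted p = 0.12) and Car3 without CR90 (0.069) or with a floor at 100 (0.066). Adipoq, which defines fat cells, was low in the glands too, at 5.00, 5.00, 5.00 and 5.00 in the transplants, against 5.17, 6.86, 5.82, 5.00 and 6.03 in the glands, and was not called (adjusted p = 0.43).

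The immune lists moved unequally. Of 18 macrophage genes 4 fell and 1, Msr1, rose (median log2 difference -0.29). Csf1r, the receptor that macrophages need to survive, had log2 levels of 8.57, 8.47, 8.57 and 8.41 in the transplants, against 10.41, 11.24, 10.36, 10.26 and 10.16 in the glands (log2 difference -1.96 ± 0.81, SE, adjusted p = 0.048). The groups were apart by more than 1.5 log2 units, but the call was lost without any 1 array (adjusted p between 0.058 and 0.094) and without either mouse, and in 6 other settings apart from limma's test against a 2-fold change (0.058 to 0.10). Cd163 differed by -1.75 ± 0.60 log2 units and Cx3cr1 by -1.13 ± 0.34; Cd163 lost its call without CR90 (0.13) or gland 2 (0.057) and with a floor at 64 or 100 (0.061 and 0.34), and Cx3cr1 without CR90 (0.073) and with the mean of all probe sets (0.065). Adgre1 (F4/80) was not called, at -0.91 ± 0.55 log2 units. The 4 falls became 0 without CR90, 1 without gland 2 and 2 without CR115, recipient 1, recipient 4 or gland 4. Of 8 MHC class II genes 3 fell, of which H2-Aa differed by -2.72 ± 0.83 log2 units and H2-Eb1 by -2.45 ± 0.81; without CR115 neither was called (adjusted p = 0.060 for H2-Aa and 0.054 for H2-Eb1), and without CR90 H2-Eb1 was not (0.089).

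Of 13 neutrophil granule genes 4 rose and none fell (median log2 difference 0.45), a share of rises near the 23.4% of all genes called higher. Prtn3, proteinase 3, had log2 levels of 9.32, 8.27, 9.68 and 9.76 in the transplants, against 5.00, 5.00, 5.00, 5.00 and 5.00 in the glands (at least 19.1-fold higher, adjusted p = 5.7e-07). S100a9, partner of S100a8, differed by 3.07 ± 1.02 log2 units and lost its call without CR90 (adjusted p = 0.10) or with a floor at 100 (0.092). The defining granule genes Mpo, Elane, Camp, Ltf and Ngp were not called.

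Most lymphoid genes were uncalled, but some antibody genes fell, with Jchain among the largest falls named above. None of the 9 T cell genes tested was called in limma (2 were lower at an unadjusted p under 0.05), and their log2 differences ranged from -0.68 to 0.43. Of 13 B and plasma cell genes 4 fell (median -0.80): Ighm, the heavy chain of IgM, had log2 levels of 6.61, 6.39, 6.94 and 7.22 in the transplants, against 9.49, 10.74, 9.52, 10.51 and 9.14 in the glands (log2 difference -2.93 ± 0.64, SE, adjusted p = 2.7e-04), Igha differed by -2.11 ± 0.41 log2 units and the B cell factor Pax5 by -1.12 ± 0.22. Cd79a lay at 5.00, 5.14, 5.47 and 5.26 in the transplants, against 5.36, 5.86, 5.25, 7.98 and 5.39 in the glands and was not called (adjusted p = 0.11); gland 4 alone held it well above the rest. Of 6 natural killer genes Gzma and Gzmb fell, with a log2 difference for Gzma of -1.80 ± 0.38. Mast cell genes fell in 3 of 5 cases, and for Cma1, a mast cell chymase, the log2 difference was -1.98 ± 0.23, with Cpa3 at -1.53 ± 0.33 and Mcpt4 at least 2.59-fold lower, adjusted p = 2.8e-08. Among 16 interferon-response genes 3 fell and 1 rose (median -0.33). The list mean was 6.20 in the CR90 recipients and 8.18 in the CR115 recipients, against 7.03 to 8.08 in the glands. The CR90 mean thus lay below the lowest gland. The CR115 mean lay above the highest gland through 1 recipient at 8.44, while the other CR115 recipient lay within the gland range. In the primary tumors the list mean ran from 6.73 to 9.89 (median 8.82). Cxcl10 differed by -3.72 ± 0.74 log2 units and the GTPase Iigp1 by -2.68 ± 0.77, while Bst2 (tetherin) had log2 levels of 6.34, 5.93, 9.07 and 8.34 in the transplants, against 5.00, 5.00, 5.00, 5.00 and 5.00 in the glands (at least 5.35-fold higher, adjusted p = 0.0021). Iigp1 lost its call without CR90 (adjusted p = 0.081), where the count of falls was 1, and Bst2 without CR115 (0.24) or with a floor at 64 or 100 (0.077 and 0.16).

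Of 15 genes of hypoxia and glycolysis 7 rose and none fell (median log2 difference 1.16). Egln3, a prolyl hydroxylase that is itself induced by HIF, had log2 levels of 10.82, 10.93, 10.82 and 10.40 in the transplants, against 7.55, 7.67, 7.54, 7.0 and 6.16 in the glands (log2 difference 3.51 ± 0.73, SE, adjusted p = 1.5e-04). Pdk1, a pyruvate dehydrogenase kinase, differed by 2.57 ± 0.40 log2 units and Car12, a carbonic anhydrase, by 3.08 ± 0.70. Ankrd37 was at least 7.22-fold higher (limma adjusted p = 1.7e-04). Car12 lost its call with a floor at 100 (adjusted p = 0.10). Vegfa was not called, at 1.16. Clock genes were split, with 2 of 15 higher and 4 lower (median -0.14). Per2 differed by -2.14 ± 0.44 log2 units, Cry1 by -1.33 ± 0.42, Dbp by -1.07 ± 0.25 and Tef by 1.06 ± 0.29. Cry1 lost its call without CR90 (adjusted p = 0.055), CR115 (0.051) or recipient 4 (0.051), with a floor at 100 (0.28) and in a fit of the 2 groups alone (0.18), where Tef lost its call too (0.15). With the mean of all probe sets of a gene Dbp was at -0.24 (adjusted p = 0.47), its other probe set differing by 0.60; no label gives the time of day of sampling.

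Of 11 genes of cartilage-type matrix 3 rose, all chains of type IX collagen, and 2 fell, Matn1 and Sox9. These shares were near the 23.4% of all genes called higher and the 16.8% called lower. Col9a1 had log2 levels of 11.33, 11.31, 10.65 and 10.13 in the transplants, against 7.58, 6.39, 7.06, 6.94 and 6.65 in the glands (log2 difference 3.91 ± 0.73, SE, adjusted p = 3.5e-05) and Col9a3 differed by 2.71 ± 0.66 log2 units, in both cases higher in the CR90 than in the CR115 recipients. The cartilage-defining genes Col2a1 and Acan were not called, at -0.07 and 0.42. The 2 falls became 0 without CR90 and 1 without CR115, recipient 2 or gland 1, 2 or 4. In the Schwann cell list Sox10, a neural crest factor also made by mammary epithelium, had log2 levels of 11.62, 11.59, 10.90 and 10.78 in the transplants, against 9.37, 8.39, 8.99, 8.98 and 8.69 in the glands (log2 difference 2.25 ± 0.37, SE, adjusted p = 5.7e-06), and Pmp22, a myelin protein, differed by -2.33 ± 0.43 log2 units. S100b had log2 levels of 8.77, 9.41, 6.37 and 5.16 in the transplants, against 5.00, 5.12, 5.51, 5.86 and 5.29 in the glands (log2 difference 1.80 ± 0.59, SE, adjusted p = 0.012), high in CR90 recipients alone; its call was lost without CR90 (adjusted p = 0.87) and without recipient 2 (0.059), and in a fit of the 2 groups alone (0.13). Among 9 skeletal muscle genes Acta1 and Mb rose and Tnni2 fell, Mb by 1.78 ± 0.44 log2 units, and Ckm was not called; Mb lost its call without CR115 (0.085) and with a floor at 100 (0.070); in the setting without CR115 no muscle gene was called higher, against 5 without CR90.

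Set against the unsorted primary tumors, few genes differed. Of the 15150 genes 114 were higher in the transplants (0.752%) and 29 lower (0.191%), and since both are measured against the same glands this is also the test of whether transplant and primary tumor differ from gland by different amounts. Slc6a15, a transporter of neutral amino acids, had log2 levels of 8.52, 9.09, 8.05 and 8.47 in the transplants, against 5.00 to 7.38 (median 5.06) in the primary tumors (log2 difference 3.10 ± 0.44, SE, adjusted p = 2.0e-05). Every transplant was above every primary tumor, and the glands were at the floor. Reep1, an ER-shaping protein, had log2 levels of 8.08, 8.45, 7.16 and 7.0 in the transplants, against 5.00 to 5.89 (median 5.00) in the primary tumors (log2 difference 2.45 ± 0.22, SE, adjusted p = 2.3e-10). Arsi, a sulfatase, differed by 2.68 ± 0.32 log2 units and Sema3b by 3.05 ± 0.67. Slc6a15, Reep1 and Arsi kept their calls without either mouse of origin, whereas Sema3b lost its call without CR90 (adjusted p = 0.22). The arginine methyltransferase gene Prmt1 differed by 2.03 ± 0.38 log2 units, Emid1 by 2.0 ± 0.50, the kinase gene Rps6ka6 by 1.93 ± 0.33 and Etv4 by 1.03 ± 0.21.

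Of the genes lower in the transplants than in the primary tumors, the chloride channel accessory gene Clca3a2 had log2 levels of 9.58, 9.14, 7.70 and 5.00 in the transplants, against 8.25 to 12.86 (median 11.52) in the primary tumors (log2 difference -3.74 ± 0.63, SE, adjusted p = 5.0e-04). Its neighbour in sequence Clca3a1 differed by -3.44 ± 0.57 log2 units. As close paralogs their probe sets may share signal. Klhl13, an adaptor of a ubiquitin ligase, was at the floor in all transplants, against 5.00 to 10.19 (median 8.22) in the primary tumors (adjusted p = 0.012). Another probe set of Klhl13 had a mean above the floor in the transplants, at 6.67, against 7.52 in the glands. Clu, the secreted chaperone clusterin, had log2 levels of 10.14, 11.08, 8.71 and 8.75 in the transplants, against 10.64 to 13.57 (median 12.33) in the primary tumors (log2 difference -2.70 ± 0.51, SE, adjusted p = 0.0022). Esr1, at the floor in every transplant, was at 5.52 to 7.40 (median 6.39) in the primary tumors (adjusted p = 0.034). The zinc transporter gene Slc39a8 differed by -3.20 ± 0.83 log2 units, the interferon-induced Trim30a by -2.79 ± 0.73, Rassf4 by -2.25 ± 0.47 and the secretory kinase gene Fam20c by -2.0 ± 0.48.

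**Figure D3:**
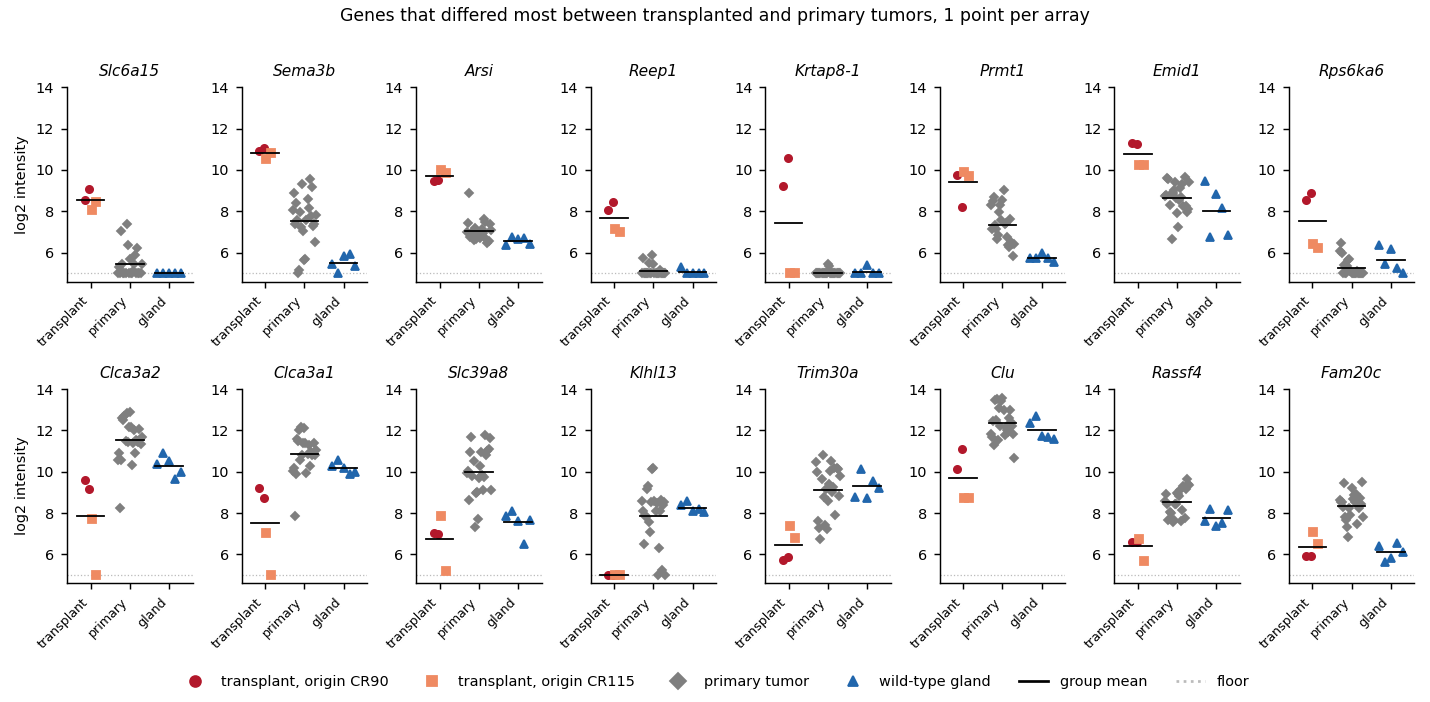
Log2 level (vertical axis, floor at 5) of the 16 genes with the largest called differences between transplants and unsorted primary tumors, 8 in each direction, with transplants at the left of each group, then primary tumors and glands; each point is 1 array. Slc6a15 and Reep1 lie above every primary tumor in all 4 transplants, and Klhl13 lies at the floor in them.

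The counts of this comparison changed when recipients were left out. Without CR90 the counts were 33 higher and 25 lower, and without CR115 they were 477 higher and 259 lower; without recipient 1 or 2 they were 60 and 15, and 54 and 12. Prmt1 (adjusted p = 0.076), Clca3a2 (0.12), Clca3a1 (0.13), Clu (0.17) and Etv4 (0.22) lost their calls without CR115, and Emid1 (0.43), Rps6ka6 (0.52), and Fam20c (0.33) without CR90. Klhl13 lost it without CR90 (0.13) or CR115 (0.088), Rassf4 without CR90 (0.058) or CR115 (0.084), and Slc39a8 without CR90 (0.23) or CR115 (0.16). Emid1 was also not called without recipient 1 or 2 (0.12 and 0.11), Fam20c without recipient 1, 2 or 4 (0.085, 0.083 and 0.067) and Slc39a8 without recipient 1, 2 or 4 (0.093, 0.093 and 0.19). Trim30a and Esr1 lost their calls without any 1 recipient (0.051 to 0.15 for Trim30a and 0.066 to 0.090 for Esr1) and without CR90 (0.36 and 0.24) or CR115 (0.074 and 0.12). Averaging per mouse of origin ended the calls of Clu, Emid1, Etv4, Fam20c, Klhl13, Slc39a8, Trim30a and Esr1 (adjusted p between 0.050 and 0.29), a floor at 64 those of Klhl13, Slc39a8, Trim30a and Esr1 (0.057 to 0.78), and the mean of all probe sets those of Etv4 (0.21), Slc39a8 (0.069) and Esr1 (0.19). Krtap8-1, higher by 2.11 ± 0.40 log2 units with all 4 transplants, had a log2 difference of -0.02 without CR90.

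The transplants differed among themselves by mouse of origin. Of 15150 genes 791 had a mean at least 2-fold higher in the CR90 pair than in the CR115 pair with no overlap of the pairs, and 387 the other way, against 76 and 67 genes at least 2-fold apart between the recipients of one mouse. These are descriptions, since each mouse of origin is a single source. Among the 6 largest differences in the CR90 direction Prr9, a proline-rich gene of the epidermal differentiation complex, had log2 levels of 10.70, 11.18, 5.00 and 5.00, Krtap8-1, a keratin-associated protein, of 9.22, 10.60, 5.00 and 5.00, and Tchh, trichohyalin of the inner root sheath, of 9.57, 10.08, 5.53 and 5.39. CR115 recipients were at or near the floor, as were the glands. Of 21 keratin-associated protein genes tested 12 met this in the CR90 direction, and of 13 hair shaft and inner root sheath keratin genes 7, against 791 of 15150 genes overall; both families were chosen after their values had been seen. On the highest primary tumor array Prr9 reached 12.54 and Tchh 11.09, whereas Krtap8-1 and Krtap15 reached no more than 5.47 and 5.21 in any primary tumor.

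The genes higher in CR115 recipients included Wnt1, a secreted signal that is not usually made by the mammary gland, with log2 levels of 5.00, 5.00, 8.62 and 8.54, against the floor in all glands and 9.0 in the CR115 primary tumor. Apoc1, an apolipoprotein, had log2 levels of 5.60, 6.33, 9.84 and 9.93 and Ly6d, an epithelial surface protein, of 7.29, 7.49, 10.87 and 10.91. Xist, which coats the inactive X chromosome, had log2 levels of 7.32, 7.83, 11.68 and 11.23 in the transplants, against 12.33, 12.36, 11.92, 11.11 and 11.37 in the glands. The recipients of CR90 were far lower than the glands and the recipients of CR115 within their range. Of the 791 genes the CR115 primary tumor was nearer to the CR115 pair for 471 (59.5%), and of the 387 for 204 (52.7%). Among genes whose higher pair had a mean above 8 these shares were 62.8% (299 of 476) and 75.2% (85 of 113). The array medians of the CR115 primary tumor were low (42.9 and 46.2), and their part in these shares was not tested.

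**Figure D4:**
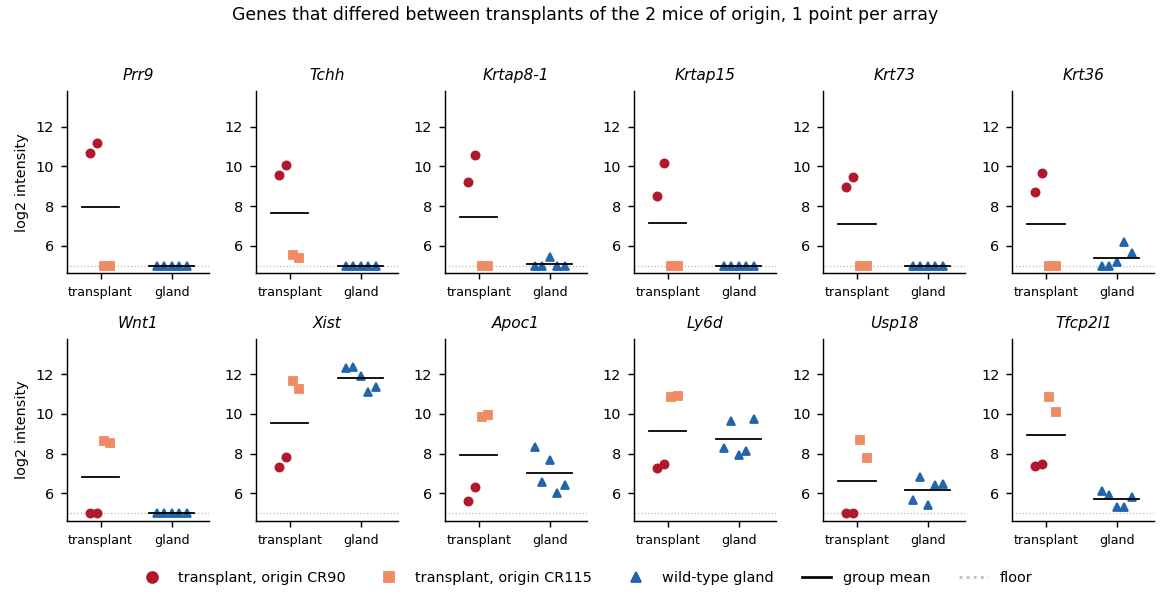
Log2 level (vertical axis, floor at 5) of 6 genes higher in the CR90 recipients and 6 higher in the CR115 recipients, by array, with transplants at the left and wild-type glands at the right. Prr9 lies above 10 in both CR90 recipients and at the floor in both CR115 recipients, and Wnt1 lies above 8 in both CR115 recipients and at the floor in both CR90 recipients.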

How the data were processed

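Per the labels' protocols, Trizol was used to extract total RNA, which then received a biotin label; 51 arrays were hybridized. For each probe set the authors deposited a linear intensity. Its summarization and scaling by the authors are not given in the sources used; the deposited scaling was kept. Intensities under 32 were set to 32 (37.4% of all values) and log2 was taken, so the log2 values are computed from the deposited ones. Gene symbols came from the platform annotation, updated through the RefSeq table of GRCm38.p6; 34944 of 45101 probe sets had 1 symbol, 932 several and 9160 none listed. A single probe set with 2 implausible values was left out. Each gene was represented by its probe set of highest mean, and 15150 of 18192 genes were tested, those above an array's 40th percentile on at least 4 arrays.

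All 6 groups of the series were fitted together in limma 3.58.1 (lmFit and eBayes, R 4.3.3) on 50 replicates, after the 2 arrays of 1 primary tumor were averaged, and mice of origin entered as random blocks (duplicateCorrelation with statmod 1.5.0, consensus correlation 0.358). P-values were adjusted by Benjamini-Hochberg over all genes and called under 0.05. In a fit of the transplants and glands alone, where only recipients share a mouse of origin, the consensus correlation was 0.874. That fit called 2594 genes higher and 2042 lower, and kept 4266 of the 6098 calls. Because of the block, fitted differences need not equal differences between group means. Where a group lay at the floor on every array, the fold is a lower bound, the other group's mean over the floor, and it rests on this fixed floor, which is no measured background. Control measures were set against each other with two-sided exact permutation tests over 5 measures. Python 3.11.15, numpy 2.4.6, pandas 2.3.3, scipy 1.17.1 and matplotlib 3.10.9 were used for tests, counts and plots.

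Genes and the 40 gene lists were chosen with earlier results of these data known. Named genes were the 12 largest rises and 12 largest falls against gland and the 8 largest in each direction against primary tumors, among called genes with an established symbol with a mean above the median of all values in the higher group, up to 4 called members of each list by size, a fixed set of marker genes whatever the result, and the 6 largest differences between the pairs of transplants in each direction. Names given without a value, as members called or not called, and Etv4 and Esr1 against primary tumors, were added after the values were seen, as were Dusp6, Spry4, Hspa5, Kit, Col1a1, Col1a2, Col3a1, Vegfa, Col2a1 and Acan. Nothing says whether the glands or recipients were handled separately, so p-values measure the spread between the samples of this series. That spread is estimated per gene over all 6 groups together, not from the transplants and glands alone. The number of arrays limits the precision.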

Additional observations from a re-analysis of the deposited data

Results flagged for a closer look

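On an array group of 4 or 5 samples, a value was marked when its gap to the nearest of the others took up most of the group's range (Dixon's ratio above its critical value). Of 322 groups checked over 156 genes 34 were marked. For normally spread values chance marks about 1 in 20 groups. A group with all arrays but 1 at the floor is always marked, so the count of 34 cannot be set against that rate. All values below are log2 levels.

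Among the transplants, the CR115 recipient 3 stood highest for Retnla at 8.34, Cd36 at 7.199, Cited4 at 10.60 and, within 0.4 of the floor, Car3 at 5.37, Fosl1 at 5.16, Cma1 at 5.16, Foxa1 at 5.01 and Sox17 at 5.00. The CR115 recipient 4 was lowest for S100a8 at 9.26 and Rassf4 at 5.66 and highest for Oxtr at 6.02. The CR90 recipient 2 was lowest for Cldn3 at 11.66 and Prmt1 at 8.22 and highest for Mki67 at 10.39, and the CR90 recipient 1 was lowest for Krt14 at 8.87.

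Among the glands, gland 1 stood highest for Atp6v1c2 at 7.26, Etv6 at 9.36, Thrsp at 6.05, Gpx2 at 5.68, Reep1 at 5.30 and Mb at 5.09. Gland 2 was highest for Tnfaip6 at 12.10, Csf1r at 11.24 and Ntrk3 at 5.00. Gland 3 was lowest for H2-Eb1 at 10.86, Mmp2 at 9.10, Mmp3 at 8.87 and Zeb1 at 7.77, and highest for Krtap8-1 at 5.42. Gland 4 was highest for Cd79a at 7.98 and Car12 at 5.20 and lowest for Pdgfrb at 8.59 and Cited1 at 5.91. Gland 5 was highest for S100a8 at 5.62.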

How the results depend on the processing

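Against gland, the counts of 3551 higher (23.4% of genes tested) and 2547 lower genes (16.8%) stayed within 1.5 times under all settings but 1. The genes behind the counts changed more. Of the 6098 calls 3754 were kept in the same direction without CR90 and 4507 without CR115. With the mean of all probe sets of a gene 5177 were kept, and 200 genes were called against the sign of their main difference. Leaving out 1 array gave 3013 to 3619 higher (19.9% to 23.9%) and 2308 to 2454 lower (15.2% to 16.2%), and limma's treat against a 2-fold change left 1.53% and 1.68%. Against primary tumors the 114 higher genes (0.752%) became 75 (0.495%) with a floor at 16, 1.90% of the 12347 tested with a floor at 100, 213 (1.41%) with arrays scaled to a common median, 70 (0.571%) with a filter at the 60th percentile and 181 (1.19%) with the mean of all probe sets of a gene. The 114 higher and 29 lower (0.191%) became 186 (1.24%) and 57 (0.381%) with the 2 groups alone, 552 (3.64%) and 270 (1.78%) with no mouse block, 35 (0.231%) and 6 (0.0396%) with values averaged per mouse of origin, and 3 (0.0198%) and 0 by limma's treat, which gave 23 lower at an unadjusted p under 0.05. Without CR90 they were 33 (0.218%) and 25, without CR115 477 (3.15%) and 259 (1.71%), and without 1 transplant 54 to 139 (0.356% to 0.917%) and 12 to 23 (0.0792% to 0.152%). No paired analysis was possible because the numbers of the labels name recipients and tumors, and the glands carry none. Among the genes set against gland or primary tumors by name, log2 differences that turned sign were those of Wap (-0.23 without CR115), Krt8 (-0.34 with quantile normalization, and -0.13 to 0.23 without 1 array), Krt18 (-0.023 with quantile normalization), Ntrk3 (-0.062 with the mean of all probe sets) and, against primary tumors, Krtap8-1 (-0.022 without CR90). Krt5, near 0 throughout, was at -0.31 with quantile normalization, -0.0031 with the 2 groups alone, with no mouse block and averaged per mouse, -0.33 without CR115 and -0.12 to 0.19 without 1 array. The cause was not tested for any of these. Of the 131 called genes among the 141 set against gland by name, 99 were called in all other settings except treat, and of the 18 set against primary tumors 3 were. List medians turned sign in at least 1 setting for 9 of 40 lists, among them RAS-MAPK feedback, the IGF axis, cell cycle inhibitors and p53 targets, circadian clock, interferon response and neutrophil granule. Values at the floor, which hold no order, limit what can be said of dim genes.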
